A study of Mus musculus with 6 samples.

Results

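The genes described here are 10 myeloid genes for C-type lectin receptors, a Trem receptor and the proteins that carry their signals. They are Clec4a2, Clec4d, Clec4e, Clec4n, Clec5a, Clec7a, Clec12a, Trem1, Tyrobp and Card9, and they were taken by gene symbol from the deposited count table. All 10 were among its 15168 genes, and all 10 also passed the filter on low counts, which left 11878 genes for testing. The samples were macrophages sorted as CD45+CD11b+F4/80+CD64+ cells from Day 3 dorsal skin wounds of female C57BL/6J wild-type mice, aged 12 weeks (young) or 24 months (aged). Each mouse carried 2 full-thickness wounds of 10 mm. There were 3 young and 3 aged samples, named A, B and C within each age, and their totals ran from 15270103 to 17927483 expected counts. Nothing in the sources says whether each sample was a separate animal or a pool, so the p-values measure the spread between these samples, which may be technical.

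C-type lectin receptors and Trem receptors sit on the surface of myeloid cells and bind microbial sugars and lipids, products of damaged cells, or ligands on other cells. Activating members signal through an immunoreceptor tyrosine-based activation motif (ITAM), carried by the adaptors Tyrobp (DAP12) or Fcer1g or in part by the receptor itself, which recruits the kinase Syk and, further on, the scaffold Card9. Clec4a2 and Clec12a instead carry an inhibitory motif that recruits phosphatases.

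Trem1, Clec4e and Clec4d were higher in aged samples, and Clec12a was lower. Of the 10 genes, 3 were higher, 1 was lower and 6 did not pass an adjusted p-value of 0.05 (edgeR quasi-likelihood test, adjusted by Benjamini-Hochberg across the tested genes). Among all tested genes, 9.73% were higher in aged samples and 7.97% lower by the same rule. Every aged sample lay above every young sample for 3 of the 10 genes, against 19.2% of all tested genes, and every aged sample lay below for 2 of them, against 19% of all tested genes. The median log2 fold change was 0.06 over the 10 genes and -0.02 over all tested genes. In sorted bulk samples, fewer cells that make a transcript and less of it in each cell cannot be told apart.

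The 3 genes that rose and the gene that fell are shown by the 250 bases before their RefSeq transcription start. The sequences are those of RefSeq on GRCm38.p6, the assembly that the mm10 coordinates of the count table share, and are written 5′ to 3′ on the strand of the gene. Capitals mark matches, on either strand, to short motifs of factors known in myeloid cells: GAGGAA (PU.1), TGANTCA (AP-1) and TTNNGNAA (C/EBP). The window of Clec4e is chr6:123289872-123290121 on the minus strand, that of Clec4d chr6:123261857-123262106, that of Trem1 chr17:48232489-48232738 and that of Clec12a chr6:129349994-129350243, these 3 on the plus strand. The RefSeq start of Clec12a lies 7553 bases inside the gene as annotated in the count table, so its window does not precede the annotated start.
Clec4e: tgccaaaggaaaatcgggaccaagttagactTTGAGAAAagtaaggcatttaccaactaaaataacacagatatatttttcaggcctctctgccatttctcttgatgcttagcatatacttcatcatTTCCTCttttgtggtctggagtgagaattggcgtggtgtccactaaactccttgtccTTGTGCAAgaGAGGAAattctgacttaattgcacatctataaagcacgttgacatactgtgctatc
Clec4d: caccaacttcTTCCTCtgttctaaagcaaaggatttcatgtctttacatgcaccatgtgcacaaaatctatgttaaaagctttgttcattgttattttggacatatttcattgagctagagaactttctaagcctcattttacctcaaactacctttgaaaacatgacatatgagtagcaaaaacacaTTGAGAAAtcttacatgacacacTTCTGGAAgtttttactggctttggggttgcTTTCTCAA
Trem1: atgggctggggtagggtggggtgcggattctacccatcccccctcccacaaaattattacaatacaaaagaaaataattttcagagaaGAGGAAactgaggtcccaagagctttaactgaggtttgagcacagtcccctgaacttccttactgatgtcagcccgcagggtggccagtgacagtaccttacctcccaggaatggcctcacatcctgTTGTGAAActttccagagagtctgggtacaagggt
Clec12a: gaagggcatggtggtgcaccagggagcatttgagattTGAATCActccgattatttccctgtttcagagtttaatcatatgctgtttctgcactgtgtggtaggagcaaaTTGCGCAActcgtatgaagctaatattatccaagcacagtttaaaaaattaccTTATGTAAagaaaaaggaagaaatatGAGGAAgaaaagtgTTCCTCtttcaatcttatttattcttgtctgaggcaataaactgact
RefSeq promoters were matched for 8 of the 10 genes, all but Clec4n and Tyrobp, and for Clec7a the entry listed first of its 2 starts was searched. The RefSeq start of Clec4a2 likewise lies 16262 bases inside the annotated gene. GAGGAA was present in 6 of the 8 windows and in 23.3% of 32851 promoter windows of the same length. TTNNGNAA was present in 7 of the 8 and in 36.8% of all windows, and TGANTCA in 1 of the 8, Clec12a, and in 6.75% of all. The motifs GGGANTTTC (NF-kB) and TTCNNTTTC (interferon response) were also searched and were in 0 of the 8, with 0.941% and 7.13% of all windows holding them. In Clec4e a GAGGAA match began 56 bases before the start and a TTNNGNAA match 66 bases before it. Clec12a held GAGGAA matches beginning 61 and 47 bases before its start. The genes that rose and the gene that fell therefore shared both of these motifs, and a match describes letters in the window only.

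Among the activating receptors, Clec4e (Mincle) binds glycolipids and a nuclear protein released by dying cells, and it lies at chr6:123281789-123289871. As counts-per-million values (CPM, on TMM-scaled totals), it stood at 658, 625 and 859 in young A, B and C and at 1812, 932 and 1251 in aged A, B and C. The groups did not overlap, with all aged samples the higher, aged A was the highest and aged B came closest to young C. The log2 fold change of Clec4e was 0.90 (SE 0.25; adjusted p = 0.0353). Its adjusted p passed only without aged B (0.0146) when samples were left out, and was 0.061 without young A, 0.121 without young B, 0.0847 without young C, 0.0907 without aged A and 0.0905 without aged C.

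Clec4d, which pairs with Clec4e on the cell surface and lies next to it at chr6:123262111-123275266, had 261.5, 227 and 283 CPM in young A, B and C and 535, 343 and 399.9 CPM in aged A, B and C. The groups did not overlap, and aged A again was the highest sample. Its log2 fold change was 0.73 (SE 0.20; adjusted p = 0.0332). The adjusted p was 0.112 without young B, 0.0967 without young C, 0.0843 without aged A and 0.0853 without aged C, and passed without young A or aged B.

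Trem1, a receptor that amplifies inflammatory responses of neutrophils and monocytes through Tyrobp, lies at chr17:48232768-48246925. Its level was 164, 140.3 and 125 CPM in young A, B and C and 495, 190 and 349.9 CPM in aged A, B and C. Aged A and aged C stood far above the young samples, while aged B was above young A by a small margin. Trem1 had the largest rise of the 10 genes, with a log2 fold change of 1.27 (SE 0.30; adjusted p = 0.0206). The adjusted p was 0.0752 without young B, 0.1 without young C and 0.0633 without aged C, and passed without each of the other 3 samples. Without aged A, its log2 fold change was 0.92.

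Clec7a (Dectin-1), the beta-glucan receptor whose own tail holds an ITAM-like motif, lies at chr6:129461591-129472780 and is listed in the annotation as a polymorphic pseudogene. It measured 513, 402 and 413 CPM in young A, B and C and 931, 457 and 918 CPM in aged A, B and C. Aged A and aged C were above all young samples, but aged B lay below young A, so the groups overlapped. The log2 fold change of 0.80 (SE 0.26) did not pass the test (adjusted p = 0.0604). It passed with DESeq2 (adjusted p = 0.0164) and with limma-voom (adjusted p = 0.018). In edgeR with the letter A, B or C as a block, Clec7a also passed, at a log2 fold change of 0.73 (adjusted p = 0.0488). Without aged B the log2 fold change was 1.07 with an adjusted p of 0.00883 in edgeR, and without any other single sample the adjusted p ran up to 0.196 and did not pass.

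Clec4n (Dectin-2), which binds mannans and signals through Fcer1g, lies at chr6:123229843-123247022 between Clec4a2 and Clec4d. Its CPM was 550.9, 576.5 and 680.3 in young A, B and C and 627, 651 and 627 in aged A, B and C. The aged samples all lay inside the young range. The log2 fold change was 0.08 (SE 0.16; adjusted p = 0.773). Clec5a, which couples to Tyrobp and lies at chr6:40574894-40585822, ran from 97.7 to 153 CPM in young samples and from 111 to 172 CPM in aged samples. Its groups overlapped, and its log2 fold change was 0.05 (SE 0.22; adjusted p = 0.904), with a sign that turned without young A or without aged A.

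Of the receptors with an inhibitory motif, Clec12a, which binds uric acid crystals and dampens responses to dead cells, lies at chr6:129342691-129365304. It measured 165, 195.5 and 216 CPM in young A, B and C and 60.8, 49.4 and 62.7 CPM in aged A, B and C. All 3 aged samples were far below the lowest young sample, and the spread was small in both groups (a coefficient of variation of 13.4% in young and 12.5% in aged samples). The log2 fold change of Clec12a was -1.74 (SE 0.18; adjusted p = 0.00127), and 1.2% of tested genes had a log2 fold change this low or lower. It passed in all 6 fits that left out a sample, with adjusted p-values from 0.00128 to 0.0133.

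Clec4a2 (DCIR) lies at chr6:123106428-123144000. It had 208, 276 and 271.5 CPM in young A, B and C and 193, 141 and 167 CPM in aged A, B and C. The groups did not overlap, although aged A was close to young A. The log2 fold change of -0.59 (SE 0.19) missed the threshold (adjusted p = 0.0503), and without young A it passed (adjusted p = 0.0248), as it did with DESeq2 (adjusted p = 0.0272) and limma-voom (adjusted p = 0.00911) on all samples. Without any other single sample the adjusted p ran up to 0.178 and did not pass. Clec4a2 has close relatives in the same cluster, so reads that fit several of these genes may have been divided among them, and its level is uncertain to that extent.

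**Figure D1:**
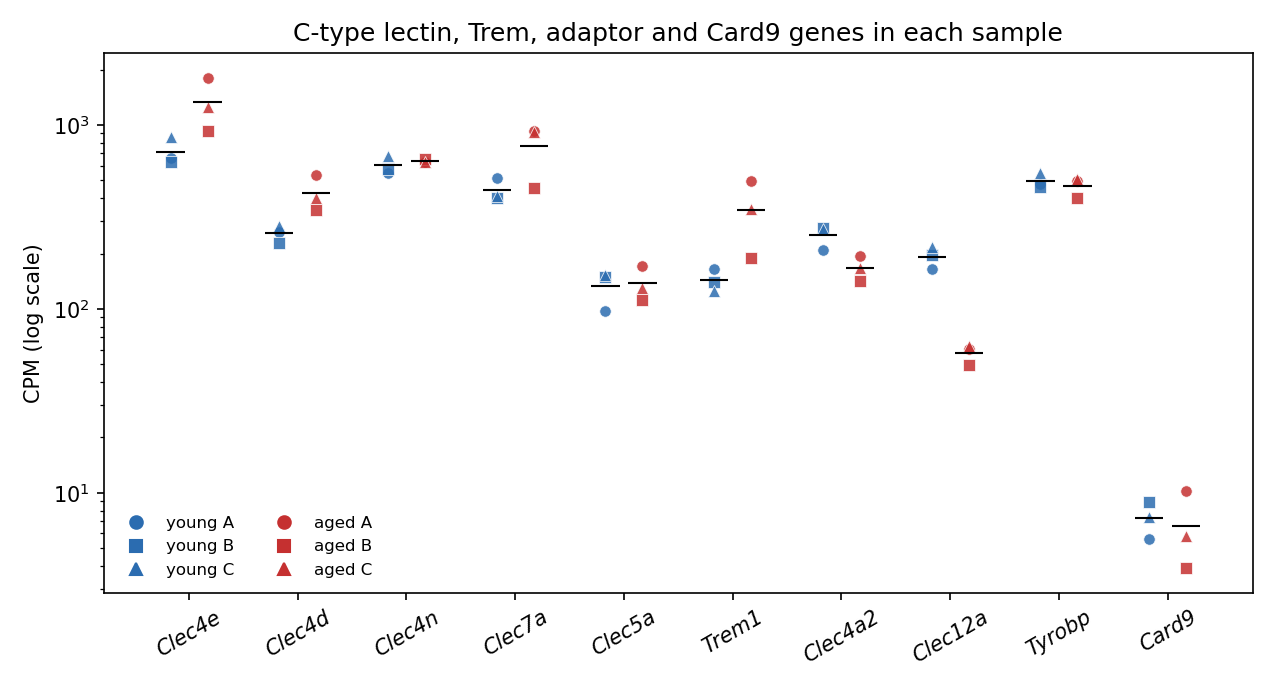
CPM (log axis) of the 10 genes in the 3 young (blue) and 3 aged (red) samples, with marker shapes for samples A, B and C and a black line at each group mean. The aged samples of Clec4e, Clec4d and Trem1 lie above the young ones, those of Clec12a and Clec4a2 lie below, and the others overlap.

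Neither the adaptor nor the scaffold passed the test. Tyrobp, the adaptor of Trem1 and Clec5a at chr7:30413760-30417586, measured 480, 462 and 550.2 CPM in young A, B and C and 497, 400.3 and 506 CPM in aged A, B and C. The groups overlapped, and the log2 fold change was -0.09 (SE 0.17; adjusted p = 0.748). Card9, the scaffold that joins Syk to Bcl10 and Malt1 and lies at chr2:26352176-26360919, had few counts, from 61 to 151 per sample. Its level ran from 5.59 to 8.86 CPM in young samples and from 3.89 to 10.2 CPM in aged samples. Card9 had a log2 fold change of -0.14 (SE 0.35; adjusted p = 0.812), with the widest error of the 10 genes. The sign of Tyrobp turned without aged B, and that of Card9 turned without young B or without aged B.

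**Figure D2:**
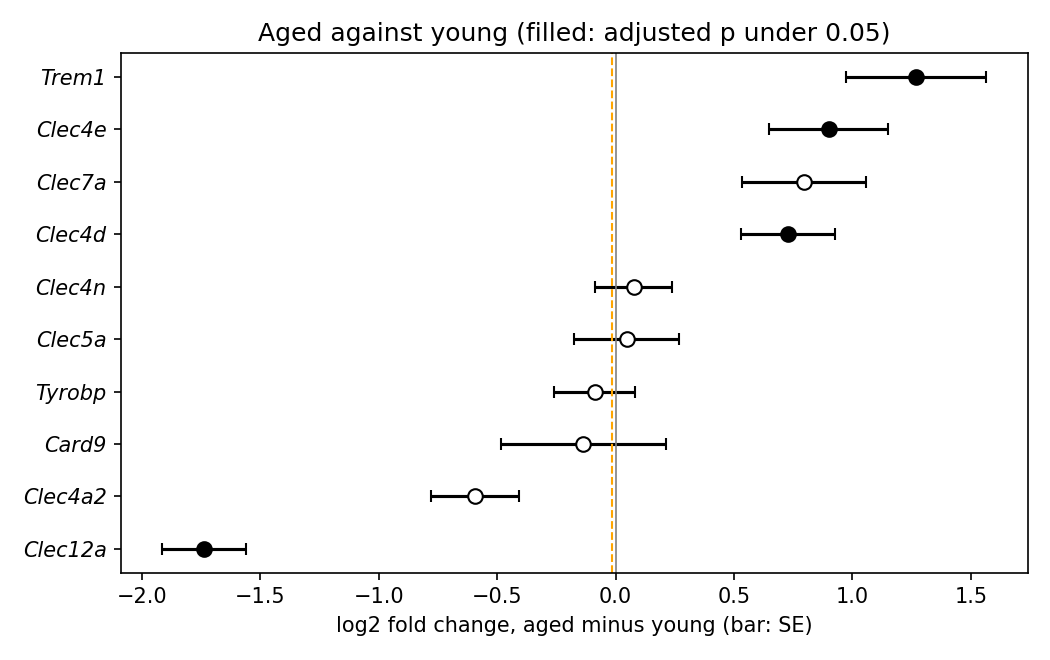
Log2 fold change of each gene in aged against young samples with its standard error (n = 3 per group), filled where the adjusted p-value was under 0.05, with a grey line at 0 and a dashed line at the median of all tested genes (-0.02). Trem1 (1.27) and Clec12a (-1.74) stand at the ends.

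To set the genes beside each other, counts were divided by the length of the longest annotated transcript and scaled to the same total in each sample (TPM, a measure of transcript level per length). In young samples the order of mean TPM was Tyrobp (1634), Clec4n (841), Clec7a (384), Clec4d (381), Clec4e (290.4), Clec4a2 (199), Clec12a (116), Trem1 (94.6), Clec5a (69.6) and Card9 (7.33). The samples of Clec7a and Clec4d overlapped in this order, as did those of Clec12a and Trem1 and of Trem1 and Clec5a. In aged samples the order was Tyrobp (1444), Clec4n (838), Clec7a (617), Clec4d (593), Clec4e (509), Trem1 (211), Clec4a2 (124), Clec5a (67.7), Clec12a (32.8) and Card9 (6.22). There the neighbours Clec7a and Clec4d overlapped, as did Clec4d and Clec4e and Trem1 and Clec4a2. With the mean transcript length in place of the longest, Trem1 (72.9 TPM in young and 158 TPM in aged samples) stood below Clec5a (97.3 TPM) in young samples and below Clec4a2 (175 TPM) in aged samples, while Clec12a stood seventh in young and ninth in aged samples with either length. At the mean length Clec4e stood above Clec7a and Clec4d in both ages, at 423 and 721 TPM, so the places of Clec4e and Trem1 depend on the transcript assumed.

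Ratios of TPM within a sample compare pairs of these genes, and their size depends on the transcript length used. The ratio of Clec4e to Clec12a was 2.69, 2.15 and 2.68 in young A, B and C and 20.1, 12.7 and 13.4 in aged A, B and C. For Trem1 over Clec12a it was 1.08, 0.775 and 0.625 in young samples and 8.8, 4.16 and 6.03 in aged samples. For Clec7a over Clec12a it was 4.42, 2.92 and 2.72 in young samples and 21.7, 13.1 and 20.8 in aged samples. All 3 ratios were higher in every aged sample than in any young sample. Clec4e over Tyrobp went from 0.17, 0.168 and 0.194 in young samples to 0.453, 0.289 and 0.307 in aged samples. With the mean transcript length this last ratio was 0.368, 0.363 and 0.419 in young and 0.977, 0.625 and 0.663 in aged samples, and Trem1 over Clec12a was 0.695, 0.5 and 0.403 in young and 5.68, 2.68 and 3.89 in aged samples. A change of length multiplies a ratio by the same factor in every sample. These ratios were formed after the values were seen and carry no test.

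**Figure D3:**
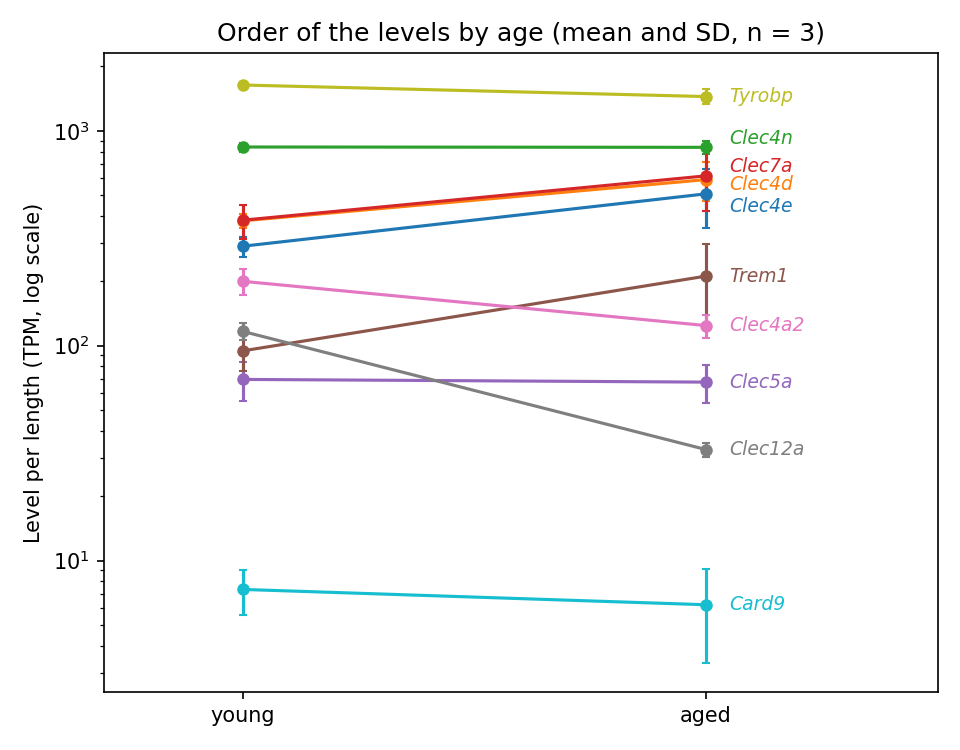
Mean level per transcript length (TPM, log axis) of the 10 genes in young and aged samples, with the standard deviation (n = 3). The lines of Clec12a and Trem1 cross, from 116 to 32.8 TPM and from 94.6 to 211 TPM.

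The genes lie in few places. Clec4a2, Clec4n, Clec4d and Clec4e are the 4 deposited genes in 183 kb of chromosome 6, and 2 of them, the neighbours Clec4d and Clec4e, were higher. Clec12a and Clec7a bound a second span of 130 kb on the same chromosome with 4 deposited genes, of which 3 were tested and 1 was lower. Between them, Clec1b did not pass the filter, and Clec1a reached at most 1.48 CPM. Genes at the ends of this span thus had log2 fold changes of -1.74 and 0.80.

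For each gene that passed the test, the 3 genes with the most similar pattern were taken from 6587 genes with a mean of at least 10 CPM, by the root mean square difference of centred log2 CPM over the 6 samples. For Clec4e these were St3gal5 (difference 0.031), Trem3 (0.12) and Sod2 (0.123). For Clec4d they were Vim (0.0521), Ikzf5 (0.0759) and Klhl28 (0.104). For Trem1 they were Sgms2 (0.121), Tlr6 (0.122) and AA467197 (0.141). Slamf9 (0.0871), Aif1 (0.155) and Oas1g (0.214) were nearest to Clec12a. Trem3, which neighbours Clec4e in pattern, is a further Tyrobp-coupled receptor of the Trem family.

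The signalling chain below the receptors was examined by gene lists. Over all 8 pathway lists 31 genes passed, and this count was 15 without young B, 6 without young C, 18 without aged A and 9 without aged C. The number passing over all tested genes also dropped in these fits. It went from 2103 to 765 without young B, 218 without young C, 1385 without aged A and 545 without aged C. List counts are also given by other rules, under which more of all tested genes passed. An unadjusted p under 0.05 in edgeR took 18.1% of all tested genes as higher and 16.5% as lower, DESeq2 11.7% and 8.59%, and limma-voom 16.3% and 14.4%. Of 13 adaptors and proximal kinases, 4 were higher in aged samples, 0 were lower and 9 did not pass, with a median log2 fold change of 0.35. By the same adjusted p, 9.73% of all tested genes were higher and 7.97% lower, with a median of -0.02. Syk, the kinase that binds phosphorylated ITAMs, measured 98.7, 47.8 and 53.3 CPM in young A, B and C and 177, 133 and 123 CPM in aged A, B and C. Syk did not overlap between the ages, and its log2 fold change was 1.11 (SE 0.27; adjusted p = 0.0237). Vav3 (0.96), Prkcd (0.94) and Lcp2 (0.79) also rose on the log2 scale, and they act just below Syk. Fcer1g, the most abundant gene of the list and the adaptor of Clec4e, Clec4d and Clec4n, had a log2 fold change of -0.09 (adjusted p = 0.75), with 871 to 1063 CPM in young and 800.2 to 1008 CPM in aged samples. In this list 6 genes were higher and 0 lower at an unadjusted p under 0.05, and 5 were higher and 0 lower with DESeq2 or with limma-voom. Both adaptors, Fcer1g and Tyrobp, thus had overlapping groups beside the rise of Syk.

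Of 11 genes of the Card9 complex and its regulators, 3 were higher, 0 were lower and 8 did not pass, with a median of 0.44. Malt1, the paracaspase, had a log2 fold change of 1.31 (SE 0.32; adjusted p = 0.0234), with 16.9 to 45.7 CPM in young and 56.4 to 89.8 CPM in aged samples. The ligase Traf6 had 0.86, and Bcl10, the partner of Malt1 and the most abundant gene here, had 0.62 (adjusted p = 0.0419). The aged samples all lay above the young ones for 8 of the 11, against 19.2% of all tested genes, while Card9 itself overlapped. At an unadjusted p under 0.05, 5 were higher and 0 lower, and with DESeq2 or limma-voom 4 were higher and 0 lower. Of 10 phosphatases, ligases and adaptors that restrain the pathway, 2 were higher and 1 was lower, against 9.73% and 7.97% of all tested genes. An unadjusted p under 0.05, DESeq2 and limma-voom each gave 3 higher and 1 lower. The ligase Cblb (1.12) and the adaptor Sla (0.98) rose. Ptpn6 (SHP-1), the phosphatase that inhibitory motifs such as that of Clec12a recruit, measured 110, 271 and 214 CPM in young A, B and C and 89.5, 93.6 and 98.2 CPM in aged A, B and C. All aged samples were below young A, the lowest young sample, and Ptpn6, the most abundant gene of its list, had a log2 fold change of -1.08 (SE 0.28; adjusted p = 0.027).

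Among the related receptors, 18 of 29 listed other C-type lectin genes were tested, and 0 were higher and 3 were lower, with a median log2 fold change of -0.48. By the same rule 9.73% of all tested genes were higher and 7.97% lower. An unadjusted p under 0.05 gave 0 higher and 5 lower (16.5% of all tested genes were lower by that rule), DESeq2 0 and 3 (8.59%), and limma-voom 0 and 4 (14.4%). Clec4a3, the most abundant of them and a relative of Clec4a2, had 253, 383 and 329.7 CPM in young A, B and C and 175, 153 and 233 CPM in aged A, B and C. Its groups did not overlap, with a log2 fold change of -0.78 (SE 0.22; adjusted p = 0.0337). Clec4b1 (-1.27) and Clec2d (-1.33) also fell, from at most 7.19 and 3.64 CPM. Reads of Clec4a3 and Clec4b1 may be divided with their close relatives.

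Of 15 tested other receptors that signal through Tyrobp or Fcer1g, 1 was higher, 1 was lower and 13 did not pass. The shares of all tested genes were 9.73% higher and 7.97% lower. An unadjusted p under 0.05 gave 4 higher and 3 lower, DESeq2 3 and 2, and limma-voom 3 and 3. With limma-voom, 16.3% of all tested genes were higher and 14.4% lower, so these counts of 15 are near the background. Trem3 rose from 10.1, 10.9 and 12.1 CPM in young A, B and C to 29.5, 15.5 and 22.8 CPM in aged A, B and C (log2 fold change 1.03; adjusted p = 0.0206). Trem2, a receptor for lipids and apoptotic cells that also uses Tyrobp, fell from 268, 434 and 383 CPM to 136, 167 and 148 CPM (log2 fold change -1.27; adjusted p = 0.00627). Receptors of the same adaptor thus differed in opposite directions between the ages. The most abundant gene of the list, the IgG receptor gene Fcgr3, had a log2 fold change of 0.55 (adjusted p = 0.0674).

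Of 14 tested genes in a list of mostly inhibitory myeloid receptors, 1 was higher and 2 were lower, with a median of 0.01. Among all tested genes 9.73% were higher and 7.97% lower, so these counts are near the background. An unadjusted p under 0.05 gave 2 higher and 2 lower, and DESeq2 and limma-voom each gave 1 and 2. Cd33 rose (0.92 on the log2 scale), and the sialic acid receptor Siglec1 (-1.31) and the inhibitory collagen receptor Lair1 (-1.06) fell. Siglec1 has no inhibitory motif in its tail, and mouse Cd33 lacks a canonical one. Lilrb4a, the most abundant, had 0.28 (adjusted p = 0.346). Of 8 tested genes for ligands that cells can make, 1 was higher and 1 was lower: Vim (0.72), the most abundant, and Lgals9 (-0.78). These counts too are near the share of all tested genes (9.73% higher and 7.97% lower). For the ligands an unadjusted p under 0.05 and DESeq2 each gave 1 higher and 1 lower, and limma-voom gave 1 and 2.

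Of 16 tested transcripts known to follow Syk and Card9 signalling, 11 were higher and 0 were lower, with a median log2 fold change of 1.16. Over all tested genes, 9.73% were higher and 7.97% lower, and the median was -0.02. An unadjusted p under 0.05, DESeq2 and limma-voom each gave 12 higher and 0 lower. Csf3 (2.94) and Il1a (2.52) were among the largest rises, and Il1b (1.08) was the most abundant. Csf2 also passed (adjusted p = 0.00623) but from 5, 2 and 3 counts in young A, B and C, against 26, 56 and 27 in aged A, B and C. These transcripts follow many other receptors as well, and the part of the lectin receptors in their levels was not tested.

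**Figure D4:**
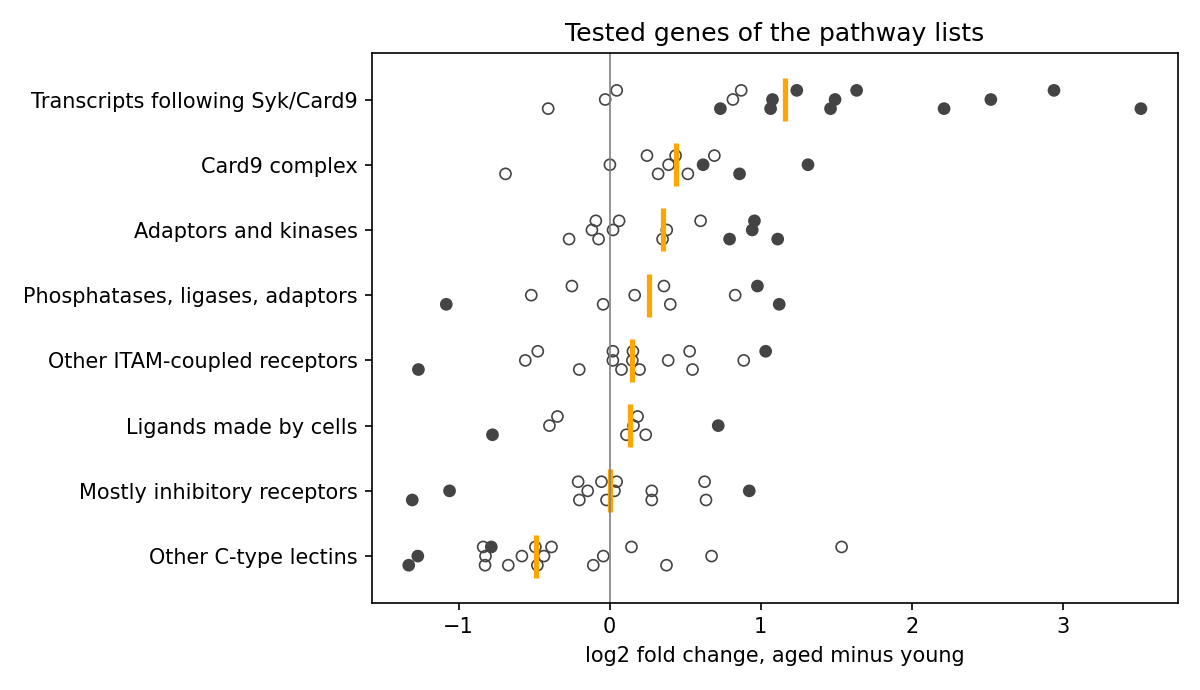
Log2 fold change (aged minus young) of each tested gene in 8 lists, filled where the adjusted p-value was under 0.05, with an orange bar at the median of each list. The medians run from 1.16 for transcripts following Syk and Card9 to -0.48 for other C-type lectins.

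The macrophage genes of the sort were present in every sample: Fcgr1 (CD64) ran from 422 to 514 CPM, and Itgam (CD11b) from 334.5 to 822 CPM. Itgam rose (log2 fold change 0.99; adjusted p = 0.00735), and Adgre1, which encodes F4/80, fell (log2 fold change -0.69; adjusted p = 0.0292). Lyz2, the most abundant macrophage marker, had a log2 fold change of -0.68 (adjusted p = 0.0753).

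Trem1, Clec4e and Clec4d are also made by neutrophils and monocytes, and the sort did not remove cells by Ly6G. Of 18 listed neutrophil markers, 15 were tested, 5 were higher and 0 were lower, against 9.73% and 7.97% of all tested genes. An unadjusted p under 0.05 gave 6 higher and 1 lower, DESeq2 5 and 0, and limma-voom 5 and 1. Cd177 (1.62), Hdc (1.46), Cxcr2 (1.13) and Lcn2 (0.99) were among these, as was Retnlg (0.85). Their summed level was 795, 1321 and 1249 CPM in young A, B and C and 1929, 1048 and 1802 CPM in aged A, B and C, with S100a9 the most abundant. Ly6g, named after its values were seen, had 6.14, 10.9 and 7.40 CPM in young samples and 9.60, 6.18 and 9.51 CPM in aged samples (adjusted p = 0.923). Elane was at 0 in the young samples and in aged B, had 6 and 5 counts in aged A and aged C, and did not pass the filter. Camp and Mpo were absent, by symbol, from the deposited genes, each of which had a total of at least 10 counts. Aged A and aged C, with the highest sums, were also the highest in Trem1, Clec4e and Clec4d. In aged B the sum was below that of young B and young C, while these 3 receptor genes were still above every young sample. Of the 15 tested markers, 4 (Cd177, Hdc, Lcn2 and Retnlg) also had every aged sample above every young sample. This compares with 19.2% of all tested genes, and 0 markers had every aged sample below. In aged B, Cd177 was at 40.7 CPM against at most 22.7 CPM in young samples, and Retnlg at 135.5 against at most 131.9 CPM. Cxcr2 was at 19.4 CPM in aged B, below young B (20.5 CPM). The part of neutrophil RNA in these results was not tested.

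Of 10 inflammatory monocyte markers, 3 were higher (Vcan, 2.13, Thbs1, 2.13, and Hp, 1.08) and 0 were lower. The shares over all tested genes were 9.73% and 7.97%. An unadjusted p under 0.05 gave 5 higher and 1 lower, DESeq2 5 and 1, and limma-voom 3 and 1. Their sum was 9101, 5504 and 6731 CPM in young A, B and C and 24490, 19580 and 20730 CPM in aged A, B and C, with Thbs1 the most abundant (6953, 2011 and 2597 CPM in young and 18890, 15200 and 16470 CPM in aged samples). The rise of the sum was thus largely that of Thbs1. Ly6c2 and Ccr2 did not pass. Ms4a4c did not pass either (log2 fold change -0.88; adjusted p = 0.0678), but all its aged samples lay below the young ones. The part of monocyte RNA in the rise of the receptors was not tested.

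Markers of further cells differed between single samples, and Pecam1 differed between the ages. Of 10 dendritic cell markers, 0 passed, with sums of 80, 42.2 and 31.4 CPM in young and 128, 52.4 and 69.1 CPM in aged samples and Ccr7 the most abundant. At an unadjusted p under 0.05, 2 were higher, as were 1 with DESeq2 and 2 with limma-voom. Of 6 tested mast cell and basophil markers, 0 passed, with sums of 96.4, 47.7 and 26.6 CPM in young samples and 67.2, 1.02 and 0.741 CPM in aged samples. Cpa3, the most abundant, was at 0 in aged B and aged C. In edgeR 0 passed an unadjusted p of 0.05 and in DESeq2 0 passed, while limma-voom with sample weights gave 5 lower. Of the T, NK and B cell markers, 2 were tested and 0 passed, with sums from 2.66 to 4.20 CPM and Nkg7 the most abundant (1 lower at an unadjusted p under 0.05, 0 with DESeq2 and 1 with limma-voom). Of 6 tested structural markers, 2 were higher (Krt14 and Pecam1, the most abundant), against 9.73% of all tested genes. An unadjusted p under 0.05 gave 2 higher and 0 lower, and DESeq2 and limma-voom each gave 1 and 0. The summed level of all listed structural markers was 248 CPM in aged B against 29.8 to 59.1 CPM in the other 5 samples. Krt14 was at 80.2 CPM in aged B and at most 0.865 CPM elsewhere. Pecam1 had 10.1, 7.16 and 6.80 CPM in young A, B and C and 24.4, 25.1 and 28.3 CPM in aged A, B and C. Its log2 fold change was 1.69 (adjusted p = 0.0022). Cdh5, the other endothelial marker of the list, did not pass the filter on low counts. It had 0.055, 0.704 and 0.528 CPM in young A, B and C and 0, 0.318 and 0.062 CPM in aged A, B and C. Without aged B, 4 of the 10 genes were higher, the fourth being Clec7a, and 1 was lower. The sort kept CD45+CD11b+F4/80+CD64+ cells, a gate meant to leave out structural cells. The part of RNA of structural cells in these results was not tested.

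**Figure D5:**
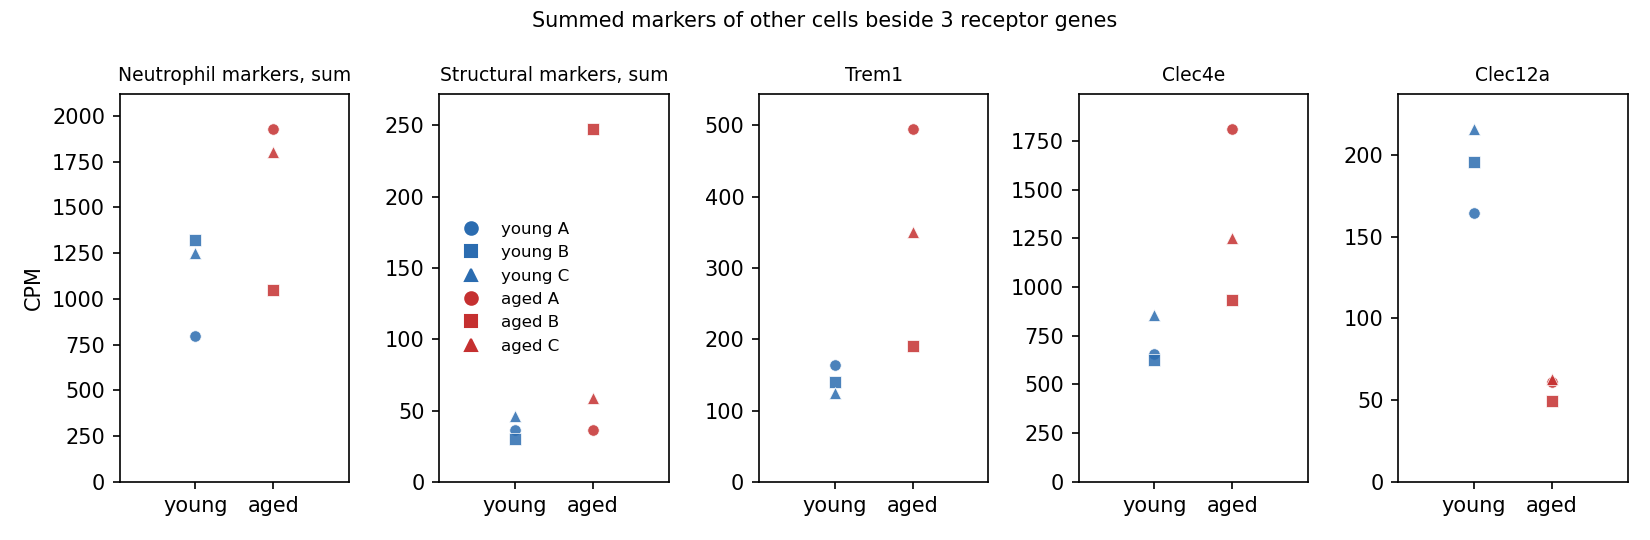
CPM, on axes from 0, of the summed neutrophil markers, the summed structural markers and 3 receptor genes in each sample, with marker shapes for samples A, B and C. Aged B has the lowest neutrophil sum of the aged samples (1048) and the highest structural sum (248), and lies above the young samples in Trem1 and Clec4e and below them in Clec12a.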

How the data were processed

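RNA of macrophages from 3 young and 3 aged samples was amplified with a low-input cDNA kit and sequenced. The authors aligned the reads with STAR 2.7.3a to mm10 and quantified Ensembl release 102 transcripts in Partek Flow, and the deposited expected counts per gene were not normalised. Every deposited gene had a total of at least 10 counts. A further table of the authors holds counts divided by DESeq2 size factors with their fold changes and p-values, and was not used here.

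Expected counts were rounded and tested in R 4.3.3 with edgeR 4.0.16 (TMM scaling, filterByExpr by age, quasi-likelihood test of aged against young, Benjamini-Hochberg adjustment over 11878 genes). Adjusted p-values come from this test unless another tool or a block is named beside them, and a standard error is the absolute log2 fold change divided by the square root of its F statistic. TPM used GENCODE M21 transcript lengths, found for 98.3% of the tested genes. The fits were tested on simulated data. Samples of the same age differed by more than sampling noise and were counted separately. limma 3.58.1 (voom) and DESeq2 1.42.0 were alternatives. Figures used matplotlib 3.10.9 and pandas 2.3.3 under Python 3.11.15.

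The members and lists were chosen with earlier results of these data known. Genes named are the 10 members; from each pathway list, up to 3 passing genes with the largest and smallest log2 fold change in each direction and the most abundant gene; Fcer1g, Syk, Bcl10, Malt1 and Ptpn6; from each marker list, the most abundant gene and up to 4 that pass; and the 3 genes of most similar pattern to each passing member. Genes named beyond this rule were chosen after their values were seen. The motifs searched in promoters were also chosen then. A macrophage marker, and the counts and sums of the list that holds it, are not reported here.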

Additional observations from a re-analysis of the deposited data

How the results depend on the processing

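Of 120 member log2 fold changes under alternative settings, 94 kept their direction and side of the threshold, 12 lost significance, 8 gained it and 6 changed sign. Clec12a passed in all of them. The 3 members higher in aged samples became 4 with DESeq2 and 4 with limma-voom (with Clec7a), 1 with a change of more than 2-fold added and 0 at an adjusted p under 0.01, and 0 to 4 without 1 sample. The 1 lower member became 2 with DESeq2, 2 with limma-voom and 2 with at least 10 counts in every sample, and 1 to 2 without 1 sample. The second was Clec4a2. The 2103 genes passing became 3646 with limma-voom, 1044 with more than 2-fold added, 306 at an adjusted p under 0.01, and 218 (without young C) to 2702 (without young A) without 1 sample. The 31 genes passing in the pathway lists became 6 (without young C) to 33 without 1 sample. With fewer samples a fit has less power, and otherwise the cause was not tested.

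The log2 fold change of Clec5a was -0.088 with limma-voom and -0.14 to 0.19 without 1 sample. That of Tyrobp was -0.14 to 0.026 and that of Card9 -0.58 to 0.15 without 1 sample.

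The set letter did not clearly pair the samples. Deviations from the group means correlated across genes at 0.181 for A, -0.0206 for B and 0.114 for C. For pairs of different letters the correlation ran from -0.215 to 0.138, so a part of set A in common is not excluded. With the letter as a block, 4 members were higher and 1 lower, 2114 genes passed, 33 genes of the pathway lists passed, and Clec7a had a log2 fold change of 0.73 (adjusted p = 0.0488). With 3 samples per group and few counts, Card9 is the least precise of the members.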
